A study of Homo sapiens with 20 samples.

Results

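The small MAF genes MAFK, MAFF and MAFG were examined through the accessible chromatin around them, with MAFK chosen because the study displayed that locus and MAFF and MAFG taken as the other members of the family. The members were the ATAC-seq peaks that overlapped 1 of 3 windows in hg19 (GRCh37) coordinates: chr7:1550000-1603000 for MAFK, chr22:38578000-38633000 for MAFF and chr17:79856000-79906000 for MAFG. These windows held 378 of the 1407450 peaks in 7 peak lists, with 54 peaks in the empty vector (EV) list, 44 in TAZ4SA, 57 in YAP5SA, 58 in CAMTA1, 36 in TFE3, 57 in TAZ-CAMTA1 and 72 in YAP-TFE3. Each window had been built with 20 kb on either side of the gene, so the gene start used here is nominal and holds to the nearest kb: 1570000 for MAFK and 38598000 for MAFF, both on the forward strand, and 79886000 for MAFG, on the reverse strand. No annotation of the hg19 build was used, and exons, introns and UTRs were therefore not assigned to peaks.

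ATAC-seq uses a transposase to cut and tag open DNA, and was applied to the established liposarcoma line SW872, of human origin, after stable transduction with 1 of 7 vectors. EV was the empty vector. TAZ4SA and YAP5SA are serine-to-alanine mutants of TAZ and YAP, the transcriptional coactivators of the Hippo pathway, CAMTA1 and TFE3 are the full-length C-terminal partners, and TAZ-CAMTA1 and YAP-TFE3 are the fusion proteins of epithelioid hemangioendothelioma, a vascular sarcoma, so that a liposarcoma line is not the tumour's own cell type. The 20 libraries comprised 3 per vector except TFE3, which had 2; the third EV library is titled a redo, and the YAP-TFE3 libraries are titled Yap5SA-TFE3. According to the study, the replicates were separate transductions followed by selection. Only 1 peak list per vector was analysed, its depth is unknown and the spread between libraries cannot be read from it, so every difference below is a difference between lists without a replicate check, and no p-value was computed.

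Small MAF proteins are basic leucine zipper transcription factors that lack a transactivation domain. They dimerise with one another or with the cap'n'collar proteins, such as NFE2 and NRF2, and with BACH1 and BACH2, and bind MAF recognition elements, which include the antioxidant response element. The partner decides whether a site is activated or repressed, and small MAF homodimers repress. In the fusions, the TAZ or YAP part brings TEAD binding, and TFE3 is a basic helix-loop-helix factor of the MiTF family that recognises E-box sequences.

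Promoter sequences from RefSeq, on GRCh38.p14, matched by symbol for MAFF, with 2 entries, and MAFG, with 1, and are shown to set the sequence beside the start peaks. MAFK matched 0 entries and is named only. At MAFF and MAFG the tallest start peak had its summit within 0.3 kb of the nominal start in every list. Each sequence holds the 250 bases before an annotated start, read 5′ to 3′ on the strand of the gene, and capitals mark the matches to the motifs searched. The MAFF entries lie at chr22:38201744-38201993 and chr22:38202770-38203019 on the forward strand, and the MAFG entry at chr17:81927736-81927985 on the reverse strand.
MAFF promoter 1: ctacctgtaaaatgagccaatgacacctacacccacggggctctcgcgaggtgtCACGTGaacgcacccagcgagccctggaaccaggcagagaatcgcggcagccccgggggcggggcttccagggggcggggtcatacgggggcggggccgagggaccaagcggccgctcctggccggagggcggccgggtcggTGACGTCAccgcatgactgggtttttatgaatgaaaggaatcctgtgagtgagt
MAFF promoter 2: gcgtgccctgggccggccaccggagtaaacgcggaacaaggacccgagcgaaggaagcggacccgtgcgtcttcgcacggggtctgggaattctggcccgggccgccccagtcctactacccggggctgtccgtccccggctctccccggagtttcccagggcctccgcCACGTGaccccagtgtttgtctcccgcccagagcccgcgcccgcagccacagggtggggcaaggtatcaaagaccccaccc
MAFG promoter: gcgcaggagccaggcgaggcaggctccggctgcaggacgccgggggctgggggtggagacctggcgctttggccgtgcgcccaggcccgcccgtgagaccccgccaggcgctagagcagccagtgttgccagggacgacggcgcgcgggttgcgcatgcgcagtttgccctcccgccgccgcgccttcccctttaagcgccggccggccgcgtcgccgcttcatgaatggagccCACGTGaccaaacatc

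All 3 sequences held the E-box CACGTG, at base 55 of MAFF promoter 1, base 170 of MAFF promoter 2 and base 235 of the MAFG promoter, counted from the first base printed. Of 35116 RefSeq promoter entries of the same length, 6.34% held this motif. MAFF promoter 1 also held the cAMP response element TGACGTCA at base 197, which 1.65% of entries held. The TEAD site CATTCC, the AP-1 site TGANTCA and the MAF half-site TGCTGA, searched on both strands, had no match in the 3 windows of 250 bases and were held by 11.9%, 6.57% and 14.0% of all entries. The sequences were rich in G and C, with 65.6%, 70.4% and 73.2% respectively. A match to these letters is a description of the sequence and not a measure of binding.

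The 3 genes differed in how much of their surroundings was accessible in every list. In EV, peaks covered 39.1% of the MAFK window, 7.43% of the MAFF window and 18.2% of the MAFG window. The MAFK window was also covered most in each of the other lists. MAFK peaks covered 20737 bases in EV, 12264 in TAZ4SA, 26729 in YAP5SA, 26441 in CAMTA1, 23322 in TFE3, 31356 in TAZ-CAMTA1 and 27591 in YAP-TFE3. TAZ4SA thus had the least and TAZ-CAMTA1 the most, but the lists also differed in total: the MAFK coverage of TAZ-CAMTA1 was 1.51 times that of EV, and the coverage of the whole list was 1.61 times that of EV.

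Around MAFF the covered bases numbered 4088 in EV, 4123 in TAZ4SA, 6704 in YAP5SA, 7079 in CAMTA1, 4321 in TFE3, 7690 in TAZ-CAMTA1 and 11504 in YAP-TFE3. YAP-TFE3 stood highest, at 2.81 times EV where its whole list was at 1.48 times EV. Every other list was also above its whole-list ratio around MAFF. TAZ-CAMTA1 reached 1.88 times EV against 1.61, CAMTA1 1.73 against 1.39, YAP5SA 1.64 against 1.23, TAZ4SA 1.01 against 0.75 and TFE3 1.06 against 1.03. Around MAFG the covered bases numbered 9112 in EV, 7573 in TAZ4SA, 10178 in YAP5SA, 11722 in CAMTA1, 9215 in TFE3, 13572 in TAZ-CAMTA1 and 13657 in YAP-TFE3. Both fusions were thus near their whole-list ratios at MAFG, at 1.49 times EV for TAZ-CAMTA1 and 1.5 times EV for YAP-TFE3.

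**Figure D1:**
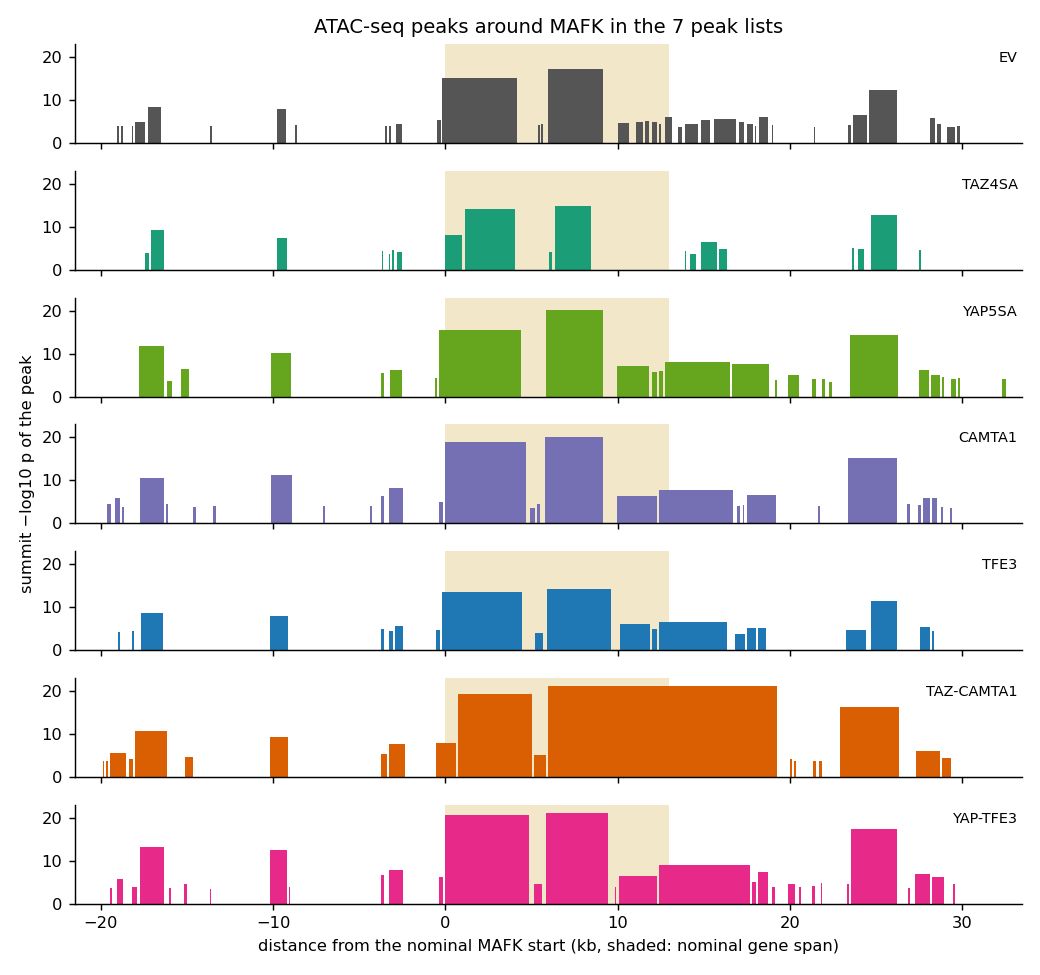
Peaks around MAFK in the 7 lists, with distance from the nominal start in kb on the x axis and the −log10 p of the peak summit on the y axis. Each bar spans 1 peak, the shaded band is the nominal gene span, and the widest bar is the single TAZ-CAMTA1 peak of 13300 bp.

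Overlapping peaks of all lists were merged into sites, which gave 372133 sites in the genome and 68 in the windows, with 22 around MAFK, 29 around MAFF and 17 around MAFG. A peak was present in all 7 lists at 17 of the 68 sites, or 25%, against 16.2% of sites genome wide. A further 26 sites, or 38.2%, had a peak in 1 list only, against 42.3% genome wide. By gene, sites held by all 7 lists numbered 7 around MAFK, 4 around MAFF and 6 around MAFG. The 17 sites included the start site of each gene, defined as the site that overlapped 1 kb to either side of the nominal start.

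The start of MAFK lay in one of the longest merged sites held by all lists. Its length is that of the union of the 7 lists, and some of its parts were joined only by TAZ-CAMTA1 peaks. The merged start site ran over chr7:1569385-1589252, or 19868 bp, and only 3 of the 60372 sites with a peak in all 7 lists were longer. Its area, the area under the curve given by the peak caller, summed over the peaks of a list, was 28987 in EV, 17449 in TAZ4SA, 46196 in YAP5SA, 48720 in CAMTA1, 29063 in TFE3, 66380 in TAZ-CAMTA1 and 60842 in YAP-TFE3. The fusions were highest, CAMTA1 and YAP5SA followed, EV and TFE3 were nearly equal, and TAZ4SA was lowest.

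This order was largely that of the lists themselves. The median site among the 60372 was 2.4 times higher in TAZ-CAMTA1 than in EV, and the MAFK start site was 2.29 times higher, so that its log2 ratio relative to the median site was −0.06. For YAP-TFE3 against EV the MAFK ratio was 2.10 and the median 2.45, which left −0.22 on the log2 scale. Against the proteins from which the fusions derive, the log2 ratio relative to the median site was 0.01 for TAZ-CAMTA1 to TAZ4SA, 0.28 for TAZ-CAMTA1 to CAMTA1, −0.38 for YAP-TFE3 to YAP5SA and −0.12 for YAP-TFE3 to TFE3. None of these 6 values reached a 2-fold difference from the median site. The value against TAZ4SA depended on the reference sites: relative to the 87 sites held by all lists within 500 kb of the MAFK window it was −0.72. It also depended on the extent of the site. It was 2.49 when only peaks that overlapped 1 kb to either side of the nominal start were summed, each over its whole length. The main TAZ4SA peak began beyond 1 kb and was left out. The TAZ-CAMTA1 peak with its summit at 2.56 kb reached inside 1 kb and was summed. In this setting of overlapping peaks, TAZ-CAMTA1 to EV moved from −0.06 to −0.57 at MAFK, and YAP-TFE3 to EV from −0.22 to −0.34. In that setting TAZ-CAMTA1 to EV was −0.54 at the MAFF start and −0.60 at the MAFG start. The 3 starts were thus alike in this ratio, in a setting chosen after the data were seen. They were not alike in TAZ-CAMTA1 to TAZ4SA, which was 2.49 at MAFK, −0.40 at MAFF and −0.62 at MAFG.

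The long MAFK site was made of distinct parts. The first was a broad peak whose summit lay 2.56 kb downstream of the nominal start, at chr7:1572558 in EV, and the summits of the other 6 lists fell within a range of 6 bp that included it. The summit −log10 p was 15.0 in EV, 14.1 in TAZ4SA, 15.4 in YAP5SA, 19.0 in CAMTA1, 13.4 in TFE3, 19.2 in TAZ-CAMTA1 and 20.8 in YAP-TFE3. Both fusions and CAMTA1 had the highest values, at 1.27 times EV in CAMTA1, 1.28 in TAZ-CAMTA1 and 1.38 in YAP-TFE3. These ratios were near those of the lists as a whole. Over the 46845 EV peaks with a summit −log10 p of 6 or more, the median ratios were 1.26, 1.31 and 1.38 respectively. The place of the summit hardly differed between lists, while its height did.

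The second part had its summit 7.0 kb downstream, within the gene span. Its −log10 p was 17.3 in EV, 14.7 in TAZ4SA, 20.03 in YAP5SA, 20.2 in CAMTA1, 14.1 in TFE3, 21.2 in TAZ-CAMTA1 and 21.2 in YAP-TFE3. The summit was at chr7:1577072 in YAP5SA, CAMTA1, TAZ-CAMTA1 and YAP-TFE3, and at 1577004 in EV, 1576988 in TAZ4SA and 1577006 in TFE3. The 4 lists with the later summit were also the 4 with the highest values. Their ratios to EV were 1.16 in YAP5SA, 1.17 in CAMTA1, 1.23 in TAZ-CAMTA1 and 1.23 in YAP-TFE3. The medians over the 46845 EV peaks were 1.09, 1.26, 1.31 and 1.38, so that only YAP5SA was above its median.

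From this second part, TAZ-CAMTA1 had 1 unbroken peak of 13300 bp, chr7:1575953-1589252, with an area of 45036. Only 3 of the 236893 TAZ-CAMTA1 peaks were wider. Over the same span, EV had 16 peaks that covered 70.3% of the bases, TAZ4SA 6 peaks over 31.2%, YAP5SA 7 peaks over 86.8%, CAMTA1 6 peaks over 88.6%, TFE3 7 peaks over 84.1% and YAP-TFE3 7 peaks over 90.9%. The summed areas there were 16004 in EV, 9790 in TAZ4SA, 31050 in YAP5SA, 29970 in CAMTA1, 18219 in TFE3 and 35783 in YAP-TFE3. The span was therefore mostly accessible in every list but TAZ4SA. Because the span was taken from the TAZ-CAMTA1 peak itself, the absence of gaps in that list was given by construction. TAZ-CAMTA1 also had the largest area there, although the median site held by all lists was likewise higher in TAZ-CAMTA1 than in EV. In the lists other than TAZ-CAMTA1, the widest MAFK peak measured from 2893 bp in TAZ4SA to 5260 bp in YAP-TFE3. An EV summit 13.1 kb downstream, within this span, was covered by a peak in every list but TAZ4SA; over the 46845 EV peaks with a summit −log10 p of 6 or more, 10.2% of summits were not covered in TAZ4SA.

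The start sites of MAFF and MAFG were shorter, with 10.2% and 2.19% of the sites held by all lists longer than them. The MAFF start site spanned 2647 bp, chr22:38597001-38599647, with an area of 6937 in EV, 4326 in TAZ4SA, 8239 in YAP5SA, 9227 in CAMTA1, 5174 in TFE3, 11461 in TAZ-CAMTA1 and 13088 in YAP-TFE3. The MAFG start site spanned 4189 bp, chr17:79883794-79887982, with an area of 7756 in EV, 5046 in TAZ4SA, 8308 in YAP5SA, 10369 in CAMTA1, 5521 in TFE3, 12589 in TAZ-CAMTA1 and 14741 in YAP-TFE3. The 2 genes shared one order of lists, from TAZ4SA through TFE3, EV, YAP5SA, CAMTA1 and TAZ-CAMTA1 to YAP-TFE3. Summed over its long merged site, MAFK differed in that TAZ-CAMTA1 stood above YAP-TFE3 and TFE3 just above EV. The MAFK peak with its summit 2.56 kb downstream, taken alone, had the same order of lists as MAFF and MAFG. Its area was 10636 in TFE3, 12744 in EV, 19127 in TAZ-CAMTA1 and 24615 in YAP-TFE3.

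Relative to the median site, both fusions were below EV at these starts. For MAFF the log2 ratio was −0.54 in TAZ-CAMTA1 and −0.38 in YAP-TFE3, and for MAFG it was −0.56 and −0.36. Strong sites shared this: over the 17945 sites held by all lists with an EV area of 2000 or more, the median log2 ratio was −0.45 for TAZ-CAMTA1 and −0.37 for YAP-TFE3. On the unscaled areas the fusions were above EV at all 3 starts.

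**Figure D2:**
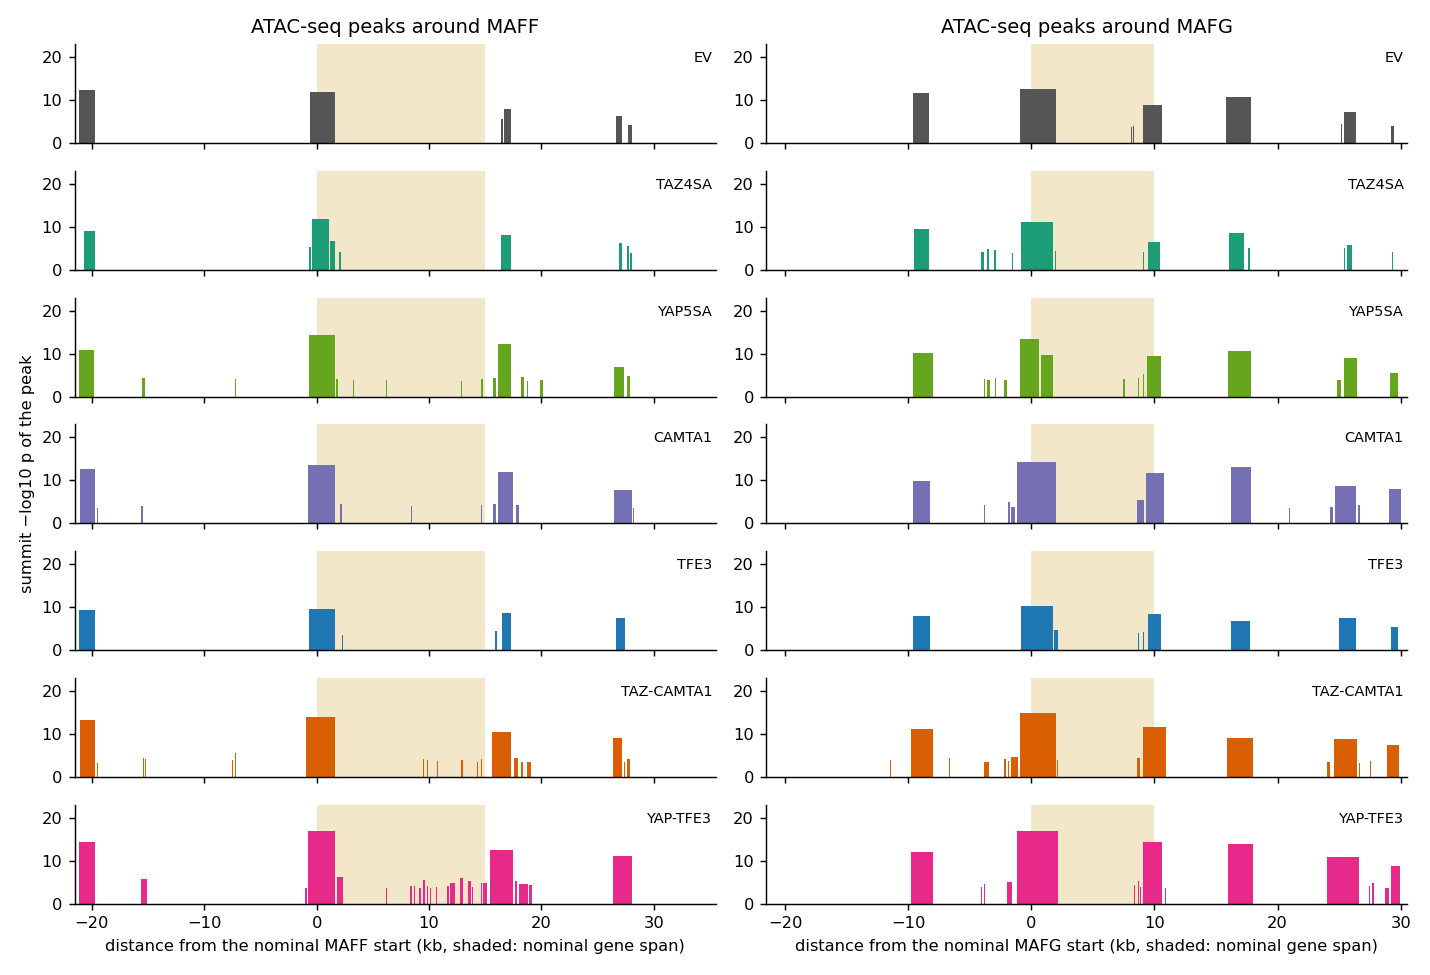
Peaks around MAFF (left) and MAFG (right) in the 7 lists, with distance from the nominal start in kb, counted along the strand of the gene, on the x axis and the −log10 p of the peak summit on the y axis. Each bar spans 1 peak, the shaded band is the nominal gene span, and the YAP-TFE3 row shows 25 peaks around MAFF where EV has 6.

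Across the 17 sites held by all lists, YAP-TFE3 had the largest area at 14, TAZ-CAMTA1 at 2 and CAMTA1 at 1. TAZ4SA had the smallest area at 16 and EV at 1. Genome wide, YAP-TFE3 was largest at 47.1% of such sites and TAZ4SA smallest at 64.7%. All 4 MAFF sites and all 6 MAFG sites had their largest area in YAP-TFE3, against 4 of the 7 MAFK sites.

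**Figure D3:**
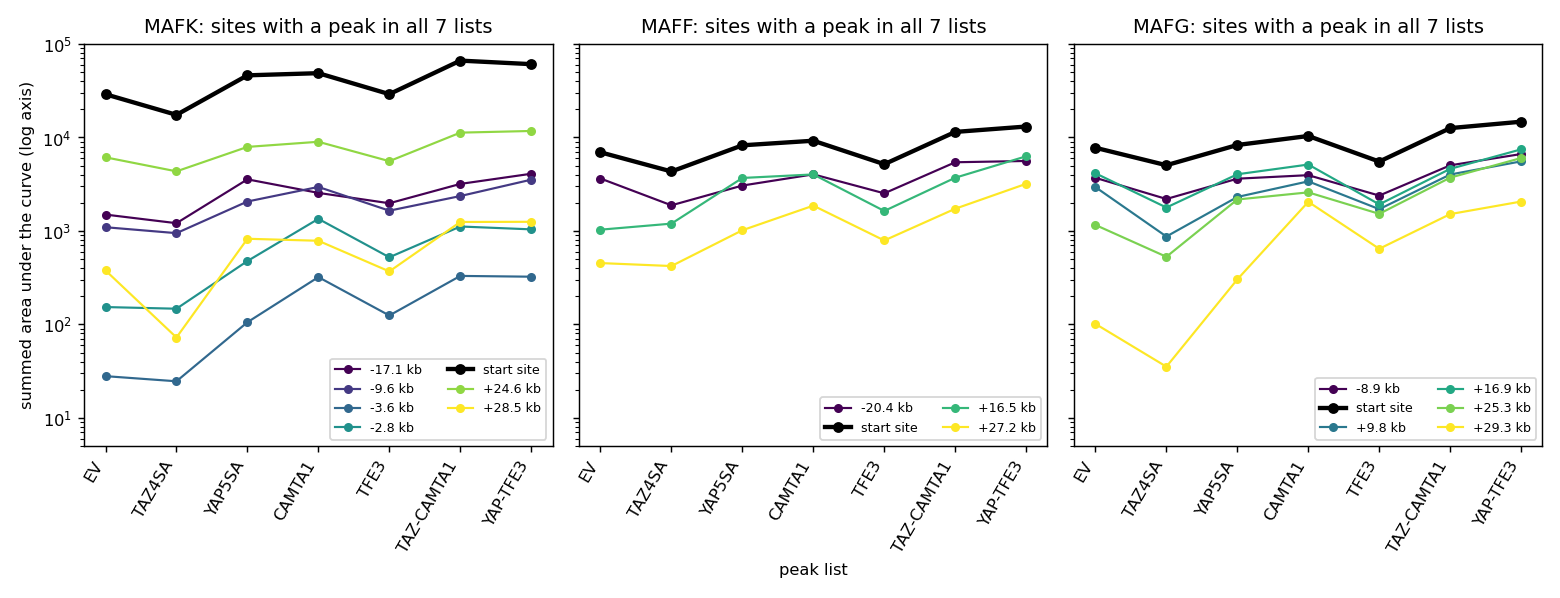
Summed area (log axis) in each of the 7 lists at the 17 sites with a peak in every list, 1 panel per gene and 1 line per site. The thick black line is the start site, the other lines are named by the distance of the site's middle from the nominal start, and the ranges from lowest to highest list are widest at the MAFG site at 29.3 kb (58.4-fold) and the MAFK sites at 28.5 kb (17.3-fold) and 3.57 kb upstream (13.4-fold).

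Some distal sites varied more between lists than the starts did. The largest distal MAFK site, chr7:1592884-1596323, lay 24.6 kb downstream of the nominal start and had an area of 6129 in EV, 4338 in TAZ4SA, 7924 in YAP5SA, 8990 in CAMTA1, 5575 in TFE3, 11260 in TAZ-CAMTA1 and 11733 in YAP-TFE3. Its spread across lists was similar to that at the start. Upstream, the site at chr7:1551649-1554117, centred 17.1 kb from the start, had 1496 in EV, 1210 in TAZ4SA, 3563 in YAP5SA, 2553 in CAMTA1, 1977 in TFE3, 3184 in TAZ-CAMTA1 and 4090 in YAP-TFE3. The site centred 9.56 kb upstream, chr7:1559800-1561090, had 1095 in EV, 947 in TAZ4SA, 2064 in YAP5SA, 2956 in CAMTA1, 1647 in TFE3, 2361 in TAZ-CAMTA1 and 3535 in YAP-TFE3. At the former YAP5SA exceeded CAMTA1 and TAZ-CAMTA1, and at the latter CAMTA1 exceeded YAP5SA and TAZ-CAMTA1. YAP-TFE3 was highest at both.

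Among the MAFK sites held by all lists, a pair of weak sites just upstream of the start had the largest ratios to EV in both fusions. The site at chr7:1566710-1567671, centred 2.81 kb upstream, had an area of 153 in EV, 147 in TAZ4SA, 476 in YAP5SA, 1347 in CAMTA1, 523 in TFE3, 1115 in TAZ-CAMTA1 and 1039 in YAP-TFE3. Its neighbour at chr7:1566238-1566615, centred 3.57 kb upstream and singled out after its values were seen, had 27.9 in EV, 24.6 in TAZ4SA, 106 in YAP5SA, 321 in CAMTA1, 125 in TFE3, 330 in TAZ-CAMTA1 and 324 in YAP-TFE3. At both, EV and TAZ4SA were lowest, and CAMTA1 was on the same level as the fusions. Relative to the median site, TAZ-CAMTA1 exceeded EV by 1.60 at the nearer and 2.30 at the farther site on the log2 scale, and YAP-TFE3 by 1.47 and 2.24. Against CAMTA1, TAZ-CAMTA1 was at −0.44 and −0.12. The EV area of the farther site was close to the lowest value a peak could have, 20, and the EV peak there, with its summit at 1566534, overlapped the TAZ-CAMTA1 peak only. The summits of the other 6 lists lay between 1566319 and 1566327, so that at this site the ratios to EV compare adjoining stretches of DNA. Over the 12426 sites held by all lists with an EV area under 200, 56.4% were 2-fold or more above EV in TAZ-CAMTA1 and 60.5% in YAP-TFE3.

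The MAFK site at chr7:1597289-1599647, centred 28.5 kb downstream and singled out after its values were seen, was lowest in TAZ4SA by a wide margin. Its area was 378 in EV, 72.4 in TAZ4SA, 824 in YAP5SA, 785 in CAMTA1, 369 in TFE3, 1247 in TAZ-CAMTA1 and 1252 in YAP-TFE3. Relative to the median site, TAZ4SA against EV was at −1.74 on the log2 scale, and TAZ-CAMTA1 against TAZ4SA at 2.18, above the 1.00 and 1.82 of the upstream pair.

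Around MAFF, both sites downstream of the gene that had a peak in all 7 lists were highest in YAP-TFE3. The site at chr22:38613408-38615505, centred 16.5 kb downstream of the nominal start, had an area of 1031 in EV, 1197 in TAZ4SA, 3687 in YAP5SA, 4022 in CAMTA1, 1635 in TFE3, 3708 in TAZ-CAMTA1 and 6289 in YAP-TFE3. The site at chr22:38624418-38626081, centred 27.2 kb downstream, had 453 in EV, 421 in TAZ4SA, 1017 in YAP5SA, 1865 in CAMTA1, 790 in TFE3, 1728 in TAZ-CAMTA1 and 3193 in YAP-TFE3. Relative to the median site, YAP-TFE3 exceeded EV by 1.32 and 1.53 on the log2 scale, and TAZ-CAMTA1 by 0.59 and 0.67. Over the 48 sites held by all lists within 500 kb of the MAFF window, the median for YAP-TFE3 against EV was itself 0.48. At the first site YAP5SA exceeded EV by 1.44 and YAP-TFE3 was level with YAP5SA, at −0.01, whereas at the second YAP-TFE3 exceeded YAP5SA by 0.87. The site at the upstream edge of the window, chr22:38576874-38578302, had 3638 in EV and 5603 in YAP-TFE3, or −0.67 relative to the median site.

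Around MAFG the site with the widest range lay at the far downstream edge of the window, chr17:79856020-79857300, centred 29.3 kb from the nominal start, and was singled out after its values were seen. Its area was 101 in EV, 35.3 in TAZ4SA, 303 in YAP5SA, 2048 in CAMTA1, 644 in TFE3, 1514 in TAZ-CAMTA1 and 2063 in YAP-TFE3. CAMTA1 and both fusions were far above EV and TAZ4SA, and TFE3 and YAP5SA lay between. The log2 ratio to EV relative to the median site was 3.29 in CAMTA1, 2.64 in TAZ-CAMTA1, 3.06 in YAP-TFE3 and 2.58 in TFE3. Its EV area was also under 200, and of the 12426 sites in that class 6.84% were at or above it in CAMTA1, 10.04% in TAZ-CAMTA1, 9.62% in YAP-TFE3 and 9.44% in TFE3.

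The remaining MAFG sites were stronger in EV and changed less. The site at chr17:79859320-79862006, centred 25.3 kb downstream, had an area of 1158 in EV, 529 in TAZ4SA, 2169 in YAP5SA, 2586 in CAMTA1, 1523 in TFE3, 3717 in TAZ-CAMTA1 and 6027 in YAP-TFE3, and exceeded EV by 1.09 in YAP-TFE3 relative to the median site. The site at chr17:79867968-79870152, centred 16.9 kb downstream, had 4137 in EV, 1780 in TAZ4SA, 4037 in YAP5SA, 5133 in CAMTA1, 1924 in TFE3, 4615 in TAZ-CAMTA1 and 7462 in YAP-TFE3. There TAZ-CAMTA1 was below the median site, at −1.10, and TFE3 at −1.20. The sites at chr17:79875050-79877394, near the end of the gene span, and chr17:79893973-79895752, upstream, ranged from 871 in TAZ4SA to 5550 in YAP-TFE3 and from 2196 in TAZ4SA to 6649 in YAP-TFE3.

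The 2-fold differences from the median site were counted over the 17 sites. Against EV, TAZ-CAMTA1 was 2-fold or more above at 3 sites and below at 1, together 23.5% of the 17, and 20.8% of all sites held by the 7 lists were that far from the median. YAP-TFE3 was 2-fold or more above EV at 6 sites, or 35.3%, and below at 0, against a background of 25.1%. The 6 were the pair of upstream MAFK sites, the 2 downstream MAFF sites and the 2 MAFG sites farthest downstream. None of these was a start site.

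Against the parent proteins the counts were no higher than the background. TAZ-CAMTA1 differed 2-fold or more from TAZ4SA at 3 sites, or 17.6%, with a background of 45%. It differed from CAMTA1 at 0 sites, with a background of 13.6%. YAP-TFE3 differed from YAP5SA at 1 site, or 5.88%, with a background of 27%, and from TFE3 at 0 sites, with a background of 12.7%. The log2 ratios to the C-terminal partner ranged from −0.60 to 0.50 for TAZ-CAMTA1 against CAMTA1 and from −0.19 to 0.83 for YAP-TFE3 against TFE3.

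**Figure D4:**
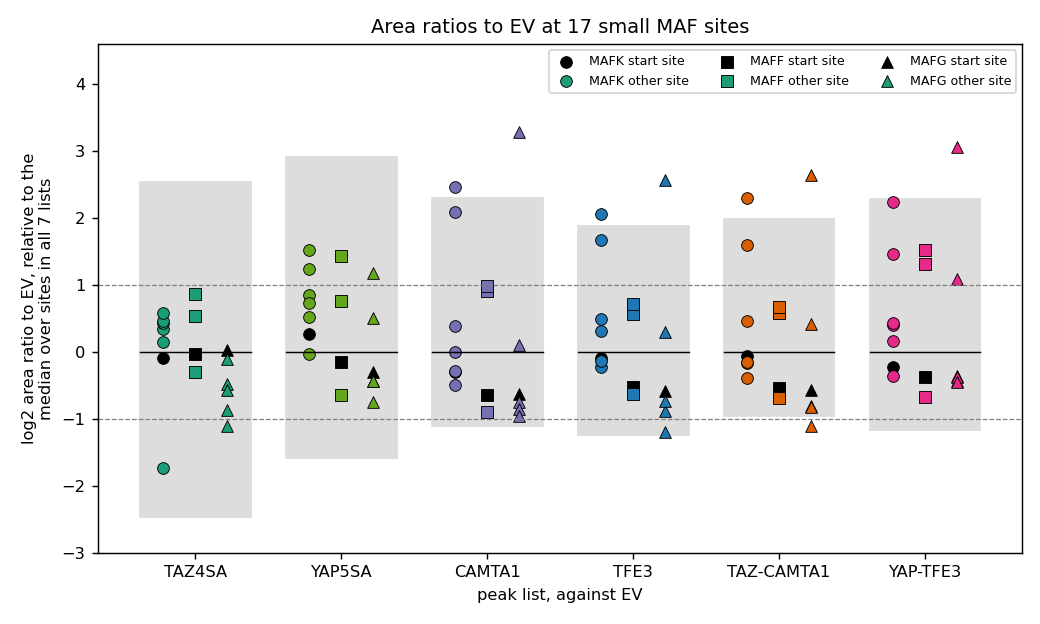
The log2 area ratio of each list to EV, relative to the median over the sites held by all 7 lists, at the 17 small MAF sites. Circles are MAFK, squares MAFF and triangles MAFG, black symbols are start sites, grey boxes hold the central 90% of the 60372 sites, and dashed lines mark 2-fold; all 3 start sites lie between the dashed lines in every list.

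Peaks without a counterpart in EV were next counted in each list. In TAZ-CAMTA1, 32 of 57 window peaks overlapped no EV peak, or 56.1% (exact Clopper-Pearson 95% interval 42.4% to 69.3%), where the whole list had 51.5%. In YAP-TFE3, 40 of 72 did, or 55.6% (43.4% to 67.3%), where the whole list had 50.7%. These intervals cover counting error only, and both included the whole-list share. YAP5SA had 28 of 57, or 49.1%, against 47.9%, and CAMTA1 had 29 of 58, or 50%, against 46.8%. TAZ4SA had 10 of 44, or 22.7%, against 33.9%. TFE3 had 4 of 36, or 11.1% (3.11% to 26.1%), an interval that ended below the whole-list share of 27.6%.

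The peaks without an EV counterpart were unevenly divided between the genes. For YAP-TFE3 they made up 21 of 25 peaks around MAFF, or 84% (63.9% to 95.5%), 10 of 31 around MAFK, or 32.3% (16.7% to 51.4%), and 9 of 16 around MAFG, or 56.3% (29.9% to 80.2%). For TAZ-CAMTA1 they made up 15 of 20 around MAFF, or 75%, 6 of 20 around MAFK, or 30%, and 11 of 17 around MAFG, or 64.7%. The MAFF interval of YAP-TFE3 lay above its whole-list share of 50.7%, and no other gene and list had an interval above its share. That of TAZ-CAMTA1 around MAFF, 50.9% to 91.3%, included its share of 51.5%. Neighbouring peaks of 1 list are not independent, so these intervals do not measure whether a window differs from the list. EV had 6 peaks around MAFF and 39 around MAFK, so that a MAFF peak had few EV peaks to overlap.

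Of the 68 sites, 44 had no EV peak, or 64.7%, against 65.98% genome wide. Among these 44, 7 reached a summit −log10 p of 5 in a fusion list, or 15.9%, against 11.9% genome wide. These 7 sites lay around MAFF, 6 of them by a YAP-TFE3 peak and 1 by a TAZ-CAMTA1 peak. Counted by peaks, YAP-TFE3 also had 1 peak of that height without an overlapping EV peak around MAFK and 2 around MAFG, in sites that held an EV peak elsewhere. Around MAFK this was not particular to a fusion: YAP5SA had 3 such peaks, CAMTA1 had 1, TFE3 had 1 and TAZ-CAMTA1 had 0. A MAFK site without EV, chr7:1554645-1555511, passed that height only in YAP5SA, with a summit −log10 p of 6.44 and an area of 361, against 185 in TAZ-CAMTA1, 107 in YAP-TFE3 and 34.7 in CAMTA1. Upstream, the site at chr22:38582347-38582856 had a YAP-TFE3 area of 616 and a TAZ-CAMTA1 area of 176, with 112 in YAP5SA and 28.3 in CAMTA1. The site at chr22:38590708-38590853 had 186 in TAZ-CAMTA1 and 37.3 in YAP5SA, and no YAP-TFE3 peak. Just past the start, the site at chr22:38599738-38600358 had 400 in YAP-TFE3, 195 in CAMTA1, 71.0 in TAZ4SA, 51.9 in YAP5SA and 21.8 in TFE3, and no TAZ-CAMTA1 peak.

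Within the MAFF gene span, 3 more such sites followed. The site at chr22:38607445-38607620 had an area of 213 in YAP-TFE3 and 59.6 in TAZ-CAMTA1, and was held by the 2 fusions only. The site at chr22:38610777-38610992 had 322 in YAP-TFE3, but 49.8 in TAZ-CAMTA1 and 23 in YAP5SA, and the site at chr22:38611442-38611717 had 192 in YAP-TFE3 and no peak in another list. Downstream, the site at chr22:38615595-38617181 had 717 in YAP-TFE3, against 194 for TAZ-CAMTA1, 145 for YAP5SA and 107 for CAMTA1, and adjoined the site 16.5 kb from the start that was high in YAP-TFE3. Their areas were thus a small part of the 13088 at the MAFF start in the same list. Sites held by both fusions and no other list numbered 3 around MAFF, 1 around MAFG and 0 around MAFK, together 5.88% of the 68 sites, against 3.15% genome wide.

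The sites whose areas across the 7 lists were most like those of the MAFK start site, by Euclidean distance between log2 areas relative to the medians, were chr11:118786748-118797490 at a distance of 0.37, chr16:75277520-75291537 at 0.45 and chr5:131591992-131603118 at 0.62. They were long sites too, of 10743, 14018 and 11127 bp. The distance was taken on the level of the areas, which are summed over a site and grow with its covered length. A similar length was therefore partly built in.

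The windows hold other genes, and a peak is not assigned to a small MAF gene by lying near it. In RefSeq on GRCh38, TMEM184A and the lncRNA LOC100128653 overlap MAFK, and TMEM184B overlaps MAFF. MAFG overlaps the lncRNAs MAFG-AS1 and MILIP, and PYCR1, MYADML2, SIRT7, PCYT2, NPB and ANAPC11 lie within 20 kb. Which gene a distal site acts on was not measured.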

How the data were processed

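The peak lists, 1 per vector, were deposited in hg19 coordinates. NGmerge trimmed the reads and, after alignment, the authors ran Genrich in ATAC-seq mode, removing PCR duplicates. The submitters' processing notes also name Bowtie 0.12.2 and the mouse build mm8, which do not match these coordinates. Calling is described per replicate, and how libraries were combined in a list is not given in the sources used here. The authors' signal of a peak is the area under the curve, with a lowest value of 20. The deposited −log10 p of the summit was used as a height. The deposited score, capped at 1000, was not used. Peak positions are counted from 1.

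Peaks overlapping by 1 bp or more were merged into sites and areas summed per list with pandas 2.3.3, and the merging was tested on simulated data. Log2 area ratios are relative to the median over the 60372 sites held by all 7 lists. Named were the start sites, the 4 distal sites of largest area per window, fusion sites without EV with a summit −log10 p of 5 or more, and the 3 sites most like the MAFK start. The members, lists and rules were chosen with earlier results of these data known. Sequences are from RefSeq (GRCh38.p14). Genes matched by symbol with 2 promoter entries for MAFF and 1 for MAFG.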

Additional observations from a re-analysis of the deposited data

How the results depend on the processing

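Of 188 values recomputed under alternatives, 166 stayed within 1.5-fold of the value reported (or, for shares, within its interval). The count includes start windows of 500 bp and 2 kb to either side, which mostly returned the same merged sites and could hardly move. The MAFK value of TAZ-CAMTA1 to EV counted as staying at −0.58, with only the peak over the EV start summit, although −0.06 was reported. Without scaling to the median site, the log2 ratio at the MAFK start was 1.2 for TAZ-CAMTA1 to EV, 1.07 for YAP-TFE3 to EV, 1.93 for TAZ-CAMTA1 to TAZ4SA, 0.40 for YAP-TFE3 to YAP5SA and 1.07 for YAP-TFE3 to TFE3, by construction, so that the 4 ratios below 0 became positive. For TAZ-CAMTA1 to TAZ4SA it was −0.72 relative to sites within 500 kb. It was 2.49 with only peaks that themselves overlapped 1 kb to either side of the start, an alternative chosen after seeing the data. The share of window peaks without an EV peak became 31.2% in TAZ-CAMTA1 and 42.6% in YAP-TFE3 with equal numbers of peaks per list (36.7% and 37.1% over the whole lists), and 82.5% and 83.3% where the overlap had to reach 50% of each peak (71.5% and 69.6%). The cause of these moves was not tested. No paired analysis was possible because a list gives 1 pooled value per vector, and for this reason no replicate was left out. Depth per library and replicate error are unknown, the gene starts hold to the nearest kb, and TFE3 rests on 2 libraries where the other vectors have 3.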

Other observations

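Positions of summits were compared apart from heights at EV summits with a −log10 p of 6 or more, a choice made after seeing the data. The summits of all 7 lists lay within 11 bp at the MAFK element 16.8 kb upstream, within 24 bp at the MAFG element at the end of the gene span and within 23 bp at the MAFF element 26.9 kb downstream. They were spread over 255 bp at the MAFG start and 479 bp at the MAFG element 9.27 kb upstream. The widest spreads were around MAFK. They were 1496 bp at the element 24.0 kb downstream and 8211 bp, over the 6 lists with a peak there, at the element 13.1 kb downstream. At these elements a wider peak of some lists covered the EV summit and had its own summit elsewhere.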
